A study of Mus musculus with 9 samples.

Results

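The cytosolic ribosomal protein genes encode the protein part of the ribosome that translates nuclear messages in the cytoplasm. They were taken by symbol from the gene tables of newborn mouse lenses (Rpl and Rps followed by a number and at most the letter a or x, together with Rplp0, Rplp1, Rplp2 and Rpsa). The rule found 76 genes among 47729 gene rows, 46 for the large subunit and 30 for the small subunit. RNA-Seq was performed on whole lenses at birth from 3 lines, non-transgenic FVB/N mice, hemizygous P0-3.9GFPCre mice and hemizygous Le-Cre mice, all on the FVB/N background. Both transgenes drive CRE recombinase together with GFP from a Pax6 P0 promoter fragment that is active in the surface ectoderm and the lens, and both were made by injection of zygotes, so that CRE, GFP and the insertion site of a line cannot be told apart. Each line had 3 pools of 6 lenses from 3 mice, and the labels name no floxed allele in any line.

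A ribosome holds 1 copy of nearly every ribosomal protein, and the acidic stalk proteins are the exception with several copies. Vertebrate ribosomal protein messages begin with a run of pyrimidines, the TOP motif, through which their translation is controlled together. Free Rpl5 and Rpl11, bound to 5S ribosomal RNA, can bind MDM2 and so connect ribosome assembly with p53. Lens fiber cells lose their organelles as they mature, and the crystallins they keep for life are made before that loss. Ribosomal protein genes also have many processed pseudogenes, which are intron-less copies of their messages elsewhere in the genome.

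Total expected counts, RSEM's estimates of the reads from each gene, ranged from 20670968 to 28098059 per pool. Of the 76 genes, 75 passed the filter on low counts, and Rps12 did not. All 11 lens markers were measured, and their summed level was 226530 to 238930 CPM (counts scaled to a common library size after TMM normalization) in FVB/N, 199700 to 251110 in P0-3.9GFPCre and 230720 to 232820 in Le-Cre. Summed blood markers (7 listed, 1 of them at 0 everywhere) lay between 45.0 and 88.9 CPM in the FVB/N pools, between 41.7 and 68.9 in P0-3.9GFPCre and between 45.3 and 120 in Le-Cre. Vessel markers ranged from 56.7 to 105 CPM over all pools, macrophage markers from 1.31 to 4.62 and retina or pigment epithelium markers from 1.66 to 9.42. Krt12 and Krt14 of the corneal list were at 0 in every pool, and the whole list stayed at or below 0.164 CPM. Summed mesenchyme markers were 163 to 184 CPM in FVB/N, 129 to 154 in P0-3.9GFPCre and 127 to 137 in Le-Cre, so that the sums of both transgenic lines lay below FVB/N. Of the 4 tested mesenchyme markers, all 4 were lower in Le-Cre than in FVB/N, from -2.07 to -0.25 on the log2 scale. In P0-3.9GFPCre against FVB/N 2 were higher and 2 lower, from -1.14 to 0.60 on the log2 scale. Y-linked genes summed to 126 to 194 CPM in FVB/N, 1.66 to 135 in P0-3.9GFPCre and 0.633 to 71.9 in Le-Cre, which differ in this way when pools hold different shares of males. The part of mesenchyme and of sex in the results was not tested. Nothing in the labels says that same-line pools came from separate litters.

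Each gene is quantified from its own row of the tables, and many of these rows compete for reads with nearly identical copies. The share of a member's 51-base sequences found again in the transcripts of another gene (GENCODE M21) ranged from 0% to 94.9% for Rpl35, with a median of 38.0%. A copy was counted with a member when it held at least 10% of the member's 51-base sequences and when at least 25% of its own were member sequence. By this rule 64 members had 251 copies in the tables, and 12 members had none. The rule was chosen after the data were seen. Of 37 described members aligned with the copy that held the most counts, 10 were identical to it over the aligned coding bases and 24 differed at 1 to 5 bases. The stretches below show 2 such pairs, because the counts of their members are discussed next. Each line gives 51 coding bases, as long as the reads, with the bases that differ in capitals. The first pair is Rpl26, a large subunit protein at the tunnel exit (chr11:68901583-68906989 on GRCm38, plus strand), and its processed pseudogene Gm15772 (chr5:3236431-3236868, plus strand), over coding bases 152 to 202, which hold the substitution C177T, counted from 1 at the start codon with the member's base first.
Rpl26: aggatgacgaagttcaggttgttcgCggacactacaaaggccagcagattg
Gm15772: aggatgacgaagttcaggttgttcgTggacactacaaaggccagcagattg
The second pair is Rps13, a small subunit protein (chr7:116331505-116334195, minus strand), and its processed pseudogene Rps13-ps1 (chr8:87047689-87048226, plus strand), over coding bases 386 to 436 with T411C and A429G.
Rps13: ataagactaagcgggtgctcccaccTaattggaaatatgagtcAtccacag
Rps13-ps1: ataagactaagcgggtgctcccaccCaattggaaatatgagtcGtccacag
Over the whole coding sequence Rpl26 and Gm15772 differed at 2 of 435 bases, and Rps13 and Rps13-ps1 differed at 2 of 453. A second copy of Rps13, Rps13-ps2 (chr7:88530446-88530898, minus strand), had 0 differences from Rps13 over the same 453 bases.

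The Rpl26 row held 286, 304 and 74.2 CPM in the 3 FVB/N pools, 326, 286 and 291 in P0-3.9GFPCre and 291, 246 and 327 in Le-Cre. The third FVB/N pool stood far below the other 8. In that pool Gm15772 held 251 CPM, while it held from 0 to 3.20 CPM in the others. Summed with its copies, Rpl26 was 287, 304 and 325 CPM in FVB/N, 326, 289 and 291 in P0-3.9GFPCre and 293, 247 and 329 in Le-Cre, and the 3 lines overlapped. RSEM's posterior standard deviation for the Rpl26 row reached at most 2.46% of its counts in any pool, whereas the row's coefficient of variation over the 9 pools was 28.6%. Rps13 behaved in the same manner on a lower level. Its own row held 29.7, 19.0 and 9.33 CPM in FVB/N, and in the third of these pools Rps13-ps2 was at 0 and Rps13-ps1 at 384 CPM. In the other 8 pools Rps13-ps2 held 71.3 to 205 CPM and Rps13-ps1 held 115 to 206. The sum for Rps13 was 341, 331 and 393 CPM in FVB/N, so that the third pool was the highest of its line once the copies were included.

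**Figure D1:**
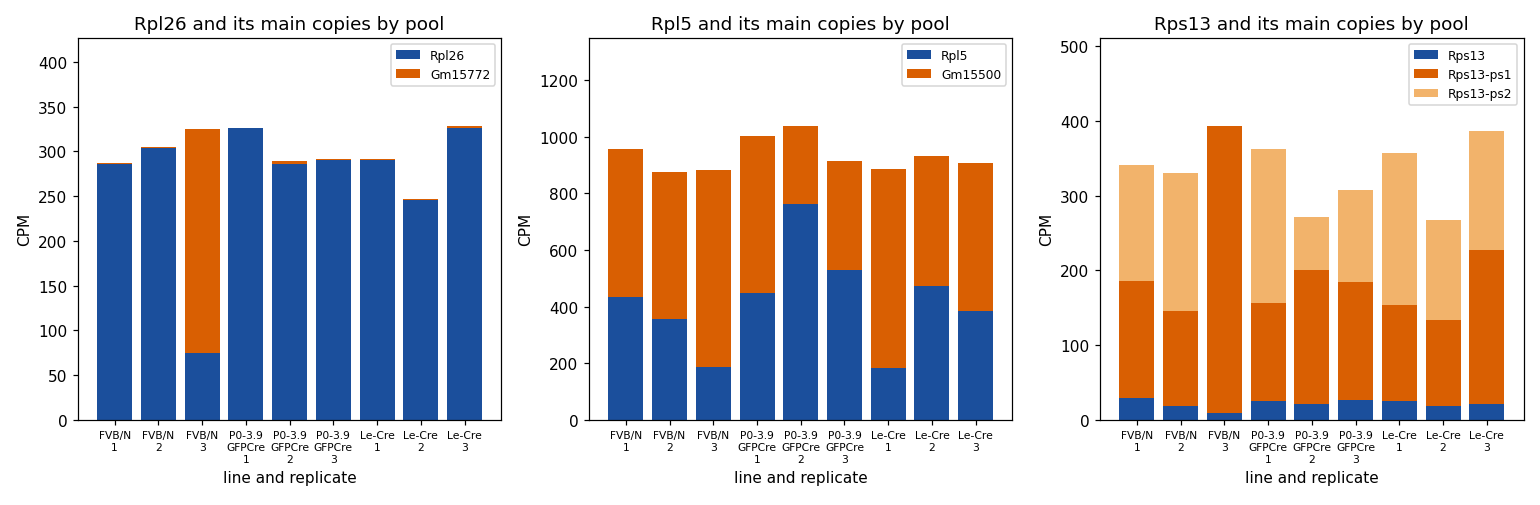
CPM of Rpl26, Rpl5 and Rps13 (blue) stacked with their main copies (orange) in each of the 9 pools, 1 bar per pool. The third FVB/N pool has 74.2 CPM in the Rpl26 row and 251 in Gm15772, and the stacked heights differ less between pools than the blue parts.

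Rpl5, which carries 5S ribosomal RNA into the large subunit, shared its counts with a copy in every pool. Its row held 432, 354 and 185 CPM in FVB/N, 449, 764 and 529 in P0-3.9GFPCre and 184, 471 and 385 in Le-Cre. Every P0-3.9GFPCre pool was above every FVB/N pool, and Le-Cre overlapped both lines. The copy Gm15500, identical to Rpl5 over all 891 coding bases, held 523, 521 and 697 CPM in FVB/N, 553, 274 and 387 in P0-3.9GFPCre and 702, 462 and 521 in Le-Cre, high where Rpl5 was low. The sum was 955, 875 and 881 CPM in FVB/N, 1002, 1038 and 915 in P0-3.9GFPCre and 889, 933 and 906 in Le-Cre. In the edgeR quasi-likelihood test the Rpl5 row differed between P0-3.9GFPCre and FVB/N by 0.84 ± 0.35 (log2 fold change ± SE, unadjusted p = 0.036, adjusted p = 0.69), and the sum by 0.12 ± 0.06 (adjusted p = 0.76).

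The level of a member depended strongly on whether its copies were included. On the TPM scale, which corrects for transcript length, the median row of the 76 members in FVB/N was at 295 and the extremes at 7.44 and 2695, and the ratio of the 90th to the 10th percentile was 19.8. Summed with copies they ranged from 170 to 2699 TPM with a median of 498, and that ratio was 3.24. Rows of unequal length enter such a sum, so that it is a description rather than a transcript count. In 25 members most of the summed counts lay outside the member's own row. Across the 76 members the rank correlation of the shared percentage with the row's TPM was -0.20 and with the summed TPM 0.12, given as a description because genes are not independent replicates.

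**Figure D2:**
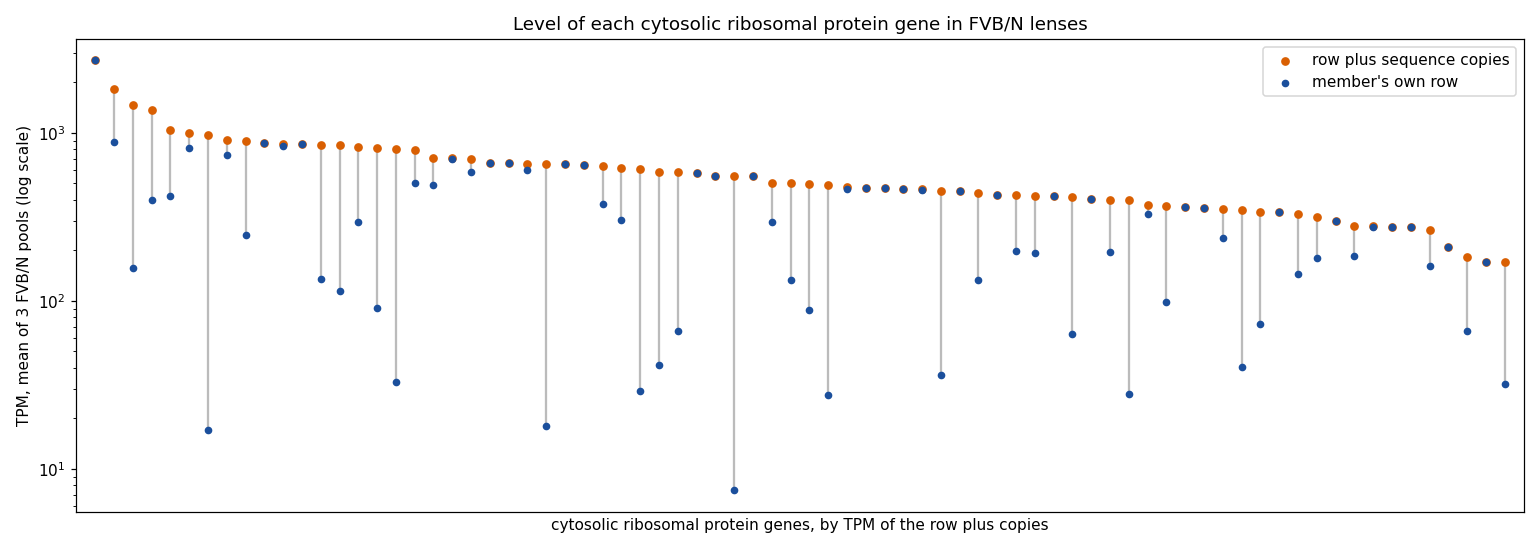
Mean TPM of the 3 FVB/N pools (log axis) for each of the 76 members, 1 position per gene along the x axis, from the own row (blue) and from the row plus sequence copies (orange), ordered by the latter. The rows span 7.44 to 2695 TPM and the sums 170 to 2699, and the lowest rows have long grey connecting lines.

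The highest row belonged to Rpl41, which encodes a very short basic peptide of the large subunit. It held 2593, 2872 and 2619 TPM in FVB/N, 2902, 2477 and 3015 in P0-3.9GFPCre and 2709, 2086 and 2780 in Le-Cre, and the lines overlapped. Among the next highest rows Rps29 had 881 ± 155 TPM in FVB/N (mean ± SD, n = 3). Rps27a, made as a fusion with ubiquitin, had 856 ± 49.9 TPM, and Rpl38 had 837 ± 62.2. The stalk base Rplp0 reached 816 ± 58.6 TPM, and Rpl7 reached 703 ± 58.5. The means of Rps29, Rps27a, Rpl38 and Rplp0 differed from each other by less than the standard deviation of Rps29. Rpl41, Rps27a, Rpl38 and Rpl7 drew at least 97.6% of their summed counts from their own rows, while Rps29 drew 71.4%.

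Several of the lowest rows had most of their summed counts on copies. Rps12 was at 0 TPM in 6 pools, at 22.3 in 1 FVB/N pool, at 53.4 in 1 Le-Cre pool and at 0.220 in 1 P0-3.9GFPCre pool. With copies it was 553 ± 37.4 TPM in FVB/N and moved from rank 76 to rank 35. Rps2, at the messenger entry of the small subunit, had 17.0 ± 1.03 TPM in its own row, which held 1.79% of its summed counts, and 968 ± 40.6 TPM with copies. Rpl12, a stalk base protein, rose from 17.9 ± 0.240 to 653 ± 114 TPM. Rpl37, Rps7, Rpl27 and Rps13 had between 27.4 and 32.9 TPM in FVB/N from their rows and between 400 and 804 TPM with copies. Rpl29 was low on both scales, with 32.1 ± 0.943 TPM from its row and 170 ± 23.4 with copies, and Rps20 was at 170 ± 33.0. With copies Rps18 held the third rank at 1473 ± 193 TPM, against 157 ± 14.2 from its row.

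The copies also changed the spread between pools. The median coefficient of variation over the 9 pools was 13.1% for own rows and 10.9% with copies, against 13.4% for all tested genes. In own rows 6 members exceeded 30%, and with copies none did, the maximum being 28.4%. Among tested members, Rpl17 (44.0%), Rpl5 (42.4%), Rpl30 (32.7%), Rps27 (31.7%) and Rpl3 (31.6%) varied most in their rows. Rpl3, which lies near the peptidyl transferase centre, became the least variable member once Rpl3-ps1 and its other copies were added, with 648, 654 and 643 CPM in FVB/N, 635, 629 and 631 in P0-3.9GFPCre and 655, 641 and 641 in Le-Cre. Rpl39, a short protein of the nascent chain exit, varied most with copies, at 242, 281 and 409 CPM in FVB/N, 387, 207 and 181 in P0-3.9GFPCre and 309, 212 and 281 in Le-Cre. Shorter members varied more, with a rank correlation of length and coefficient of variation of -0.40 across the 76 members.

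The share of the message taken by the family overlapped between the 3 lines. Summed over the members' rows it was 26447, 27405 and 27545 TPM in FVB/N, 30983, 26609 and 26974 in P0-3.9GFPCre and 27726, 24445 and 27606 in Le-Cre. The first P0-3.9GFPCre pool was the highest and the second Le-Cre pool the lowest, and the lines overlapped. The means were 27132 ± 598, 28189 ± 2427 and 26592 ± 1860 TPM (SD, n = 3). As a share of expected counts this was 1.47 ± 0.0368%, 1.52 ± 0.123% and 1.45 ± 0.114%. With copies the means were 45836 ± 1194 TPM in FVB/N, 46656 ± 4233 in P0-3.9GFPCre and 45049 ± 3554 in Le-Cre. The ratio of small to large subunit TPM with copies was 0.645 ± 0.0102, 0.655 ± 0.00592 and 0.653 ± 0.0149. The 77 mitochondrial ribosomal protein genes, which build the separate ribosome of mitochondria, summed to 1819 ± 45.6 TPM in FVB/N, 1900 ± 141 in P0-3.9GFPCre and 1891 ± 103 in Le-Cre. In bulk lenses fewer cells of a type and less RNA per cell cannot be told apart.

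Most members moved together from pool to pool, and this movement did not follow the lines. Each member with its copies was compared with its own mean over the 9 pools on the log2 CPM scale. The median deviation of the 76 members was -0.02, 0.00 and 0.14 in the FVB/N pools, 0.11, -0.10 and -0.06 in the P0-3.9GFPCre pools and 0.06, -0.22 and 0.08 in the Le-Cre pools. In the second Le-Cre pool 74 of 76 members lay below their own mean, and in the first P0-3.9GFPCre pool 66 lay above it. The within-line SD of the median, 0.13, was larger than the distance between any 2 line means, which were 0.04, -0.02 and -0.03. Both subunits shared the pattern, with -0.26 for the large and -0.21 for the small subunit in the second Le-Cre pool. The 12 members without a summed copy were at -0.20 in that pool, all 12 below their own mean. Mitochondrial ribosomal protein genes were also low there (-0.10), translation factors of the TOP class were at -0.07 and ribosome biogenesis genes at 0.03. Over all tested genes the median deviation stayed between 0.00 and 0.01 in every pool. Normalization over these same genes holds it there, so it is no independent contrast. The 6134 other tested genes no longer than the longest member, not otherwise matched to the members in length, had medians between -0.03 and 0.03. Their lowest median was also in the second Le-Cre pool and their highest in the third. In the third FVB/N pool, where the members were highest, their median was -0.002. The second Le-Cre pool had the highest summed blood markers of all pools, 120 CPM against 41.7 to 88.9 elsewhere, and a normalization factor of 1.03 within the range of 0.961 to 1.04. The part of blood, RNA quality or library preparation in the pool pattern was not tested.

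**Figure D3:**
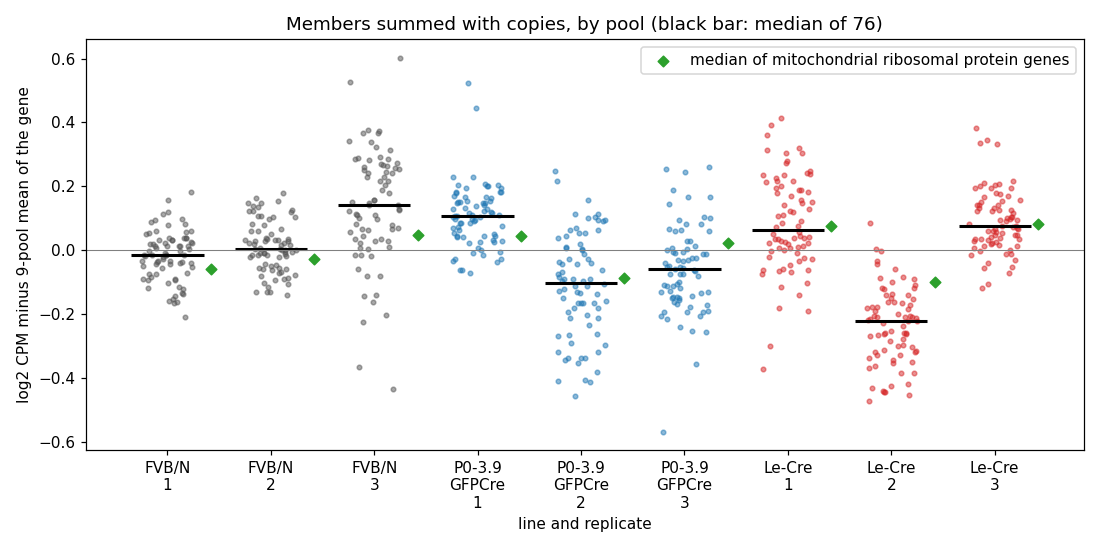
Deviation of each of the 76 members, summed with copies, from its own 9-pool mean (log2 CPM) in each pool, with the median as a black bar and the median of the mitochondrial ribosomal protein genes as a green diamond. The second Le-Cre pool lies lowest (median -0.22) and the third FVB/N pool highest (0.14), and pools of 1 line lie on both sides of 0.

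The promoters of the members were examined in RefSeq windows of 300 bases (250 before and 50 after the annotated start, build GRCm38.p6). A window was found for 56 of the 76 members. The letters CTTTCC, a pyrimidine run of the TOP type, occurred on either strand in 29 of the 56 (51.8%) and in 29.3% of all 27025 genes with a window. In the last 100 bases the shares were 33.9% and 10.3%. The letters CGGAAG, the core recognized by ETS family factors, occurred on either strand in 69.6% of the members' windows and in 18.8% of all. Matches of the 2 motifs can overlap each other only in an end letter. A match is a description of letters and not a bound site. Matches before the start or on the other strand are counted too, so the shares are not counts of TOP messages. The following windows run from 30 bases before to 20 bases after the annotated start, with CTTTCC in capitals. All were chosen as examples with CTTTCC near the start, from both subunits, and are not a sample of the family. They are Rpl28 (chr7:4792935-4792984, plus strand), Rpl35 (chr2:39005112-39005161, minus strand), Rpl38 (chr11:114668550-114668599, plus strand), Rps27 (chr3:90213629-90213678, minus strand) and Rps10 (chr17:27635225-27635274, minus strand).
Rpl28: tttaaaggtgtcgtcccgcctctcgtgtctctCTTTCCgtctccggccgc
Rpl35: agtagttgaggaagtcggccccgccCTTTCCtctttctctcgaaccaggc
Rpl38: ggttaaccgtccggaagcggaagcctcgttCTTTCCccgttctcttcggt
Rps27: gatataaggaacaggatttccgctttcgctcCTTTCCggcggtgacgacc
Rps10: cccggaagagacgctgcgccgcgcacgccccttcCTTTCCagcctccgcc

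The comparison of Le-Cre with FVB/N asked whether the family differs in lenses that carry the Le-Cre transgene. A member counted as called in edgeR's quasi-likelihood test when it changed by 1.5-fold or more and its adjusted p did not exceed 0.05. By this cutoff 0 of 75 members were called, against 0.0643% of all 15557 tested genes. The DESeq2 Wald test also called 0 members. At an unadjusted p under 0.05, 0 members were higher (background 3.6%) and 4 were lower (background 4.35%). Among the lower ones were Rpl27a, Rplp1 and Rpl23a. Rpl27a, near the tunnel of the large subunit, held 94.8, 89.2 and 86.1 CPM in FVB/N and 77.6, 72.3 and 83.2 in Le-Cre, without overlap, a difference of -0.21 ± 0.07 (log2, SE, adjusted p = 0.51). The stalk protein Rplp1 differed by -0.18 ± 0.08 and the exit-site protein Rpl23a by -0.22 ± 0.10, and in both the pools overlapped. On the other side, Rps27 (0.48 ± 0.24), Rpl3 (0.41 ± 0.26), Rpl26 (0.38 ± 0.37) and Rps16 (0.15 ± 0.13) had the smallest p-values among the members with a positive difference, and all 4 overlapped.

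When copies were added, 0 of 76 members were called in this comparison (background 0.0646%), and 0 had an unadjusted p under 0.05 in either direction (background 3.72% higher and 4.21% lower). The difference of Rpl27a became -0.02 ± 0.08, that of Rps27 became -0.04 ± 0.21 and that of Rpl3 became -0.01 ± 0.05. The median log2 fold change of the members was -0.07 from rows and -0.05 with copies, against 0.00 for all tested genes. The sign rested on single pools: without the second Le-Cre pool the median was 0.05 on either scale, and 56 of 76 members with copies then lay above 0 in place of 15.

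The comparison of P0-3.9GFPCre with FVB/N addressed the same question for the other transgene. From rows, 0 of 75 members were called (background 0%), and the DESeq2 Wald test called 0. Unadjusted p-values under 0.05 were found in 3 members that were higher (background 3.41%) and in 0 that were lower (background 3.41%). These 3 were Rpl5, Rpl30 and Rpl27a. Rpl30 held 51.1, 68.2 and 55.2 CPM in FVB/N and 94.2, 51.9 and 103 in P0-3.9GFPCre (0.51 ± 0.21, adjusted p = 0.67), and its pools overlapped. Rpl27a held 103, 109 and 95.2 CPM in P0-3.9GFPCre, all above FVB/N (0.19 ± 0.07, adjusted p = 0.67). Among members with a negative difference, Rpl6 (-0.26 ± 0.13), Rpl35 (-0.27 ± 0.15), Rps28 (-0.37 ± 0.20) and Rpl18 (-0.24 ± 0.14) had the smallest p-values.

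With copies, 0 of 76 members were called for P0-3.9GFPCre against FVB/N (background 0%), 2 had an unadjusted p under 0.05 and were higher (background 3.46%) and 1 was lower (background 3.42%). Rps23, which takes part in decoding and is named here after its values were seen, held 228, 228 and 213 CPM in FVB/N and 264, 250 and 280 in P0-3.9GFPCre, without overlap (0.25 ± 0.08, adjusted p = 0.60). Rpl27a was 0.23 ± 0.08 higher (adjusted p = 0.65). Rpl30, in contrast with its row, gave -0.17 ± 0.13. The median of the members was -0.05 from rows and -0.06 with copies, against 0.00 for all genes. Without the third FVB/N pool it was 0.02 from rows and -0.01 with copies.

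The comparison of Le-Cre with P0-3.9GFPCre set the transgenic lines side by side. From rows, 0 of 75 members were called (background 0%), 2 were higher (background 3.63%) and 5 lower (background 4.25%) at an unadjusted p under 0.05. Rpl27a had the smallest p, with Le-Cre below P0-3.9GFPCre in all pools (-0.40 ± 0.07, adjusted p = 0.29). DESeq2 gave the same row an adjusted p of 0.00184 at -0.40, which is under 1.5-fold, and called 0 members. Over 33 settings in all, copies included, the adjusted p of Rpl27a ranged from 0.00184 to 0.862 and its difference from -0.45 to -0.17. With copies Rpl27a differed by -0.25 ± 0.08 (edgeR adjusted p = 0.50, DESeq2 adjusted p = 0.23). The Rpl30 row differed by -0.73 ± 0.21 (adjusted p = 0.43) and its sum by 0.17 ± 0.13. Rpl24 (-0.20 ± 0.08) and Rpl23a (-0.22 ± 0.10) were also among the lower rows, and Rps16 (0.31 ± 0.13) and Rps27 (0.56 ± 0.25) the higher ones. With copies 0 of 76 members were called (background 0%), 0 were higher (background 3.65%) and 4 lower (background 4.16%) at an unadjusted p under 0.05. Those 4 were Rps23 (-0.26 ± 0.08, adjusted p = 0.43), Rpl27a, Rps2 (-0.14 ± 0.06) and Rps18 (-0.23 ± 0.10), the last named after its value was seen. The median was -0.03 from rows and 0.00 with copies, and without the second Le-Cre pool it was 0.08 and 0.10.

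**Figure D4:**
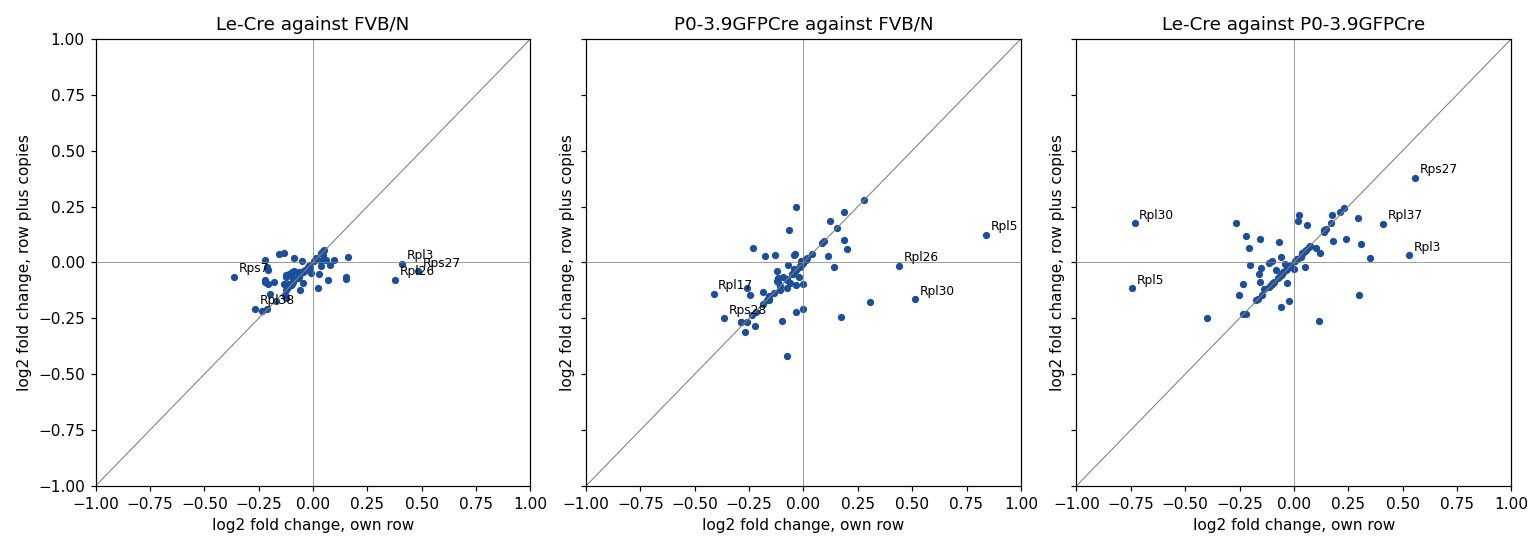
Log2 fold change of each of the 75 tested members from its own row (x axis) and from the row plus sequence copies (y axis) in the 3 comparisons, with the line of equality and the 5 largest row values labelled. Points far from 0 on the x axis, such as Rpl5 (0.84 and 0.12 in P0-3.9GFPCre against FVB/N) and Rpl30 (-0.73 and 0.17 in Le-Cre against P0-3.9GFPCre), lie closer to 0 on the y axis.

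Functional groups within the family were examined in the same tests, and 0 members were called in each group and comparison from rows and with copies. Over all tested genes 0.0643% were called from rows and 0.0646% with copies in Le-Cre against FVB/N, and 0% in the other comparisons. At these shares 0 calls in a small group say little about it. In the stalk, the Rplp0 row was 721, 744 and 683 CPM in FVB/N, 721, 583 and 679 in P0-3.9GFPCre and 683, 590 and 707 in Le-Cre, and the lines overlapped. The Rplp2 row was 236, 201 and 194 CPM in FVB/N, 211, 233 and 257 in P0-3.9GFPCre and 207, 178 and 248 in Le-Cre, also with overlap. The median difference of the 4 stalk genes with copies was -0.09, 0.03 and -0.13 in Le-Cre against FVB/N, P0-3.9GFPCre against FVB/N and Le-Cre against P0-3.9GFPCre. Rpl11, the partner of Rpl5, was 352, 378 and 367 CPM with copies in FVB/N, 355, 396 and 393 in P0-3.9GFPCre and 352, 341 and 409 in Le-Cre, and its lines overlapped. The 9 proteins around the nascent chain exit had medians of -0.10, -0.11 and 0.02 with copies in the same order. In Le-Cre against FVB/N all 9 lay below 0 with copies and 7 from rows, beside 61 of all 76 members with copies. Among them Rpl4 held 740, 750 and 773 CPM in FVB/N and 704, 659 and 745 in Le-Cre (-0.10 ± 0.06, adjusted p = 0.76). The 19 genes in which Diamond-Blackfan anemia mutations are known, an inherited failure of red cell production, had medians of -0.04, -0.04 and 0.00 with copies. Rps19, the first of them to be linked to the disease, was 271, 247 and 262 CPM in FVB/N, 280, 272 and 280 in P0-3.9GFPCre and 254, 204 and 284 in Le-Cre. In Le-Cre against FVB/N, Rps24 (-0.21 ± 0.11) and Rps26 (-0.02 ± 0.16), also of this list, did not pass the test. In the small subunit head, Rps25 differed by -0.05 ± 0.12 from its row and by 0.00 ± 0.12 with copies in that comparison. Of 15 members listed as binding MDM2, 0 were called, and their medians with copies lay between -0.03 and -0.01.

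Ribosomal genes with other names were measured beside the family. Copies were searched for the members only, so these values are from each gene's own row. Reads on copies of these genes were not examined, and a low row is not a low total. Gnb2l1, the scaffold protein Rack1, ranged from 540 to 652 CPM, Rps3a1 from 441 to 544 and Fau, the source of Rps30, from 7.41 to 14.5. Rps4l, a paralog of Rps4x, was 4.16, 4.13 and 3.56 CPM in FVB/N, below all pools of P0-3.9GFPCre (5.47, 6.20 and 6.69) and Le-Cre (6.65, 4.80 and 5.92). Its differences were 0.63 ± 0.16 (adjusted p = 0.59) and 0.55 ± 0.16 (adjusted p = 0.38), which both failed the correction. Rps27l, a p53 target, differed by -0.65 ± 0.23 in P0-3.9GFPCre against FVB/N (adjusted p = 0.65). Rpl22l1 ranged from 30.5 to 67.1 CPM, Rps27rt from 7.10 to 52.6, Rpl36al from 38.5 to 58.0 and Rpl7l1 from 20.3 to 26.3. Rps27rt is also a copy that was summed with Rps27 above, identical to Rps27 over all 252 coding bases. The paralogs Rpl3l, Rpl10l and Rpl39l, known from muscle and testis, were at or below 0.0452 CPM in every pool.

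Lists of genes that make or control ribosomes were tested in the same fit. Its background of calls was 0.0643% in Le-Cre against FVB/N and 0% in the other comparisons. Of 33 tested biogenesis genes 0 were called in any comparison, and the smallest p-values over the 3 comparisons belonged to Sbds (-0.31 ± 0.11) and Noc2l (-0.23 ± 0.09) in Le-Cre against P0-3.9GFPCre. None of 13 RNA polymerase I genes was called, with Ubtf, which opens ribosomal DNA for transcription, at -0.20 ± 0.06 in that comparison (adjusted p = 0.46). Of 16 TOP-class translation factors 0 were called, with Nap1l1 at 0.28 ± 0.09 in P0-3.9GFPCre against FVB/N (adjusted p = 0.63). None of the 10 regulators of TOP translation was called, with Rps6kb1, the kinase of Rps6, at -0.20 ± 0.07 (adjusted p = 0.65) in the same comparison. None of the 77 mitochondrial ribosomal protein genes was called, and their median difference was 0.03, 0.00 and 0.02 in the 3 comparisons. Cdkn1a, the p53 target that arrests the cell cycle, was the exception among the related lists, with 1.29, 1.20 and 1.19 CPM in FVB/N, 3.74, 1.502 and 5.75 in P0-3.9GFPCre and 11.4, 11.0 and 11.8 in Le-Cre (Le-Cre against FVB/N 3.21 ± 0.36, adjusted p = 0.033). In the edgeR fit of own rows, leaving out any 1 of the 6 FVB/N and Le-Cre pools ended this call. The adjusted p was 0.116, 0.174 and 0.0553 without FVB/N replicates 1, 2 and 3. It was 0.150, 0.0522 and 0.149 without Le-Cre replicates 1, 2 and 3, while the difference stayed between 3.19 and 3.25. In the edgeR fit with members summed with copies, the call held without FVB/N replicate 3 (adjusted p = 0.0429) or Le-Cre replicate 2 (0.0370). It ended there without any other pool of these lines. With all pools the DESeq2 Wald test also called Cdkn1a in this comparison (adjusted p = 2.3e-16). The edgeR test fitted to the compared lines alone called it as well (adjusted p = 5.2e-05). For Cdkn1a the differences of 1.58 ± 0.37 in P0-3.9GFPCre against FVB/N (adjusted p = 0.59) and 1.63 ± 0.33 in Le-Cre against P0-3.9GFPCre (adjusted p = 0.29) did not pass in the main edgeR test. The DESeq2 Wald test called the latter (adjusted p = 0.0010) and gave no adjusted p for the former. The edgeR test without the low-count filter called both (adjusted p = 0.00039 and 1.7e-05). Trp53 (0.26 ± 0.11, adjusted p = 0.59) and Mdm2 (0.14 ± 0.07, adjusted p = 0.68) did not pass the test in Le-Cre against FVB/N.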

How the data were processed

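Polyadenylated RNA of 9 lens pools was sequenced as single-end reads of 50 cycles. Per the labels and the study's methods, the authors trimmed reads with Trimmomatic 0.36, used GSNAP for mapping to GRCm38, and estimated gene levels with RSEM 1.3.0. The annotation is not given in the sources used here. The deposited tables hold expected counts, which RSEM estimates and which divide ambiguous reads among genes, and the authors' TPM, scaled for length and depth. The mice were FVB/N, and strain differences from the reference were not examined. Expected counts were rounded and tested in R 4.3.3 with edgeR 4.0.16 (TMM, filterByExpr, 1 coefficient per line, quasi-likelihood test, Benjamini-Hochberg adjustment over 15557 genes). SE is the fold change divided by the root of F. DESeq2 1.42.0 was an alternative. Deviations used log2(CPM + 0.5). Coding sequences were aligned with Biopython 1.88.

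Members and gene lists were chosen with earlier results of these data known. Named are the 8 members highest and the 8 lowest in TPM, up to 4 per direction with the smallest p in each comparison, the 5 most variable, the stalk and 5S proteins, the highest of each subgroup, every ribosomal gene outside the symbol rule, and up to 4 genes per other list. Some genes that this rule names are not reported here. The lists were the members' subgroups, biogenesis, RNA polymerase I, TOP-class, p53, marker and Y-linked genes. Samples were grouped by the labels, and for 1 sample the description and the title gave different replicate numbers, of which the title's was used. Tests measure the spread between pools, which may be partly technical.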

Additional observations from a re-analysis of the deposited data

How the results depend on the processing

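No member was called in any comparison under another normalization, filter of at least 10 mean counts, length offset, subset of lines, DESeq2, added pseudogene rows, sequence copies (chosen after seeing the data) or omission of the fold limit. Omission of the low-count filter, in contrast, called 1 member in P0-3.9GFPCre against FVB/N (Rpl5) and 3 in Le-Cre against P0-3.9GFPCre (Rpl5, Rpl30 and Rps12). In that setting 93 and 123 of all 27804 genes were called in these comparisons, against 0 and 0 of 15557 in the main test. DESeq2 without the fold limit passed 1 member in Le-Cre against P0-3.9GFPCre (Rpl27a). Leaving out each pool gave 0 calls throughout. The medians then ranged from -0.12 to 0.05 in Le-Cre against FVB/N, from -0.13 to 0.02 in P0-3.9GFPCre against FVB/N and from -0.08 to 0.08 in Le-Cre against P0-3.9GFPCre, so that their direction is not stable. With copies these ranges were -0.12 to 0.05, -0.13 to -0.01 and -0.06 to 0.10. Of the 40 named members, Rps12 had no value in the main test and was left out of the following count. Of 3744 values of the other named members under alternatives, 3165 moved by no more than their error and 576 moved further. The remaining 3 passed the cutoff, all without the low-count filter. The ratio of summed TPM to FVB/N ranged from 0.959 to 1.02 for Le-Cre and from 0.987 to 1.07 for P0-3.9GFPCre. Pools with the same replicate number did not deviate together (correlation of deviations -0.10 to 0.12 over 9 pairs). With the replicate block 0 members were called, and the medians were -0.08, -0.05 and -0.04. The block changed no other call of a member. Over all genes it reduced the calls in Le-Cre against FVB/N from 10 to 2. The part of depth was not tested. With 3 pools per line the median SE on the log2 scale was 0.13 for a row and 0.11 for a member with copies. Row differences above 1.5-fold such as those of Rpl5 and Rpl30 also failed the adjusted test in the main fit.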
